A study of Homo sapiens with 5 samples.

Results

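The genes described here encode the translation initiation factors, the proteins that bring the small ribosomal subunit, the initiator tRNA and an mRNA together. They were chosen by name, as the autosomal protein-coding genes of GENCODE release 44, lifted to GRCh37, whose symbols start with EIF1, EIF2, EIF3, EIF4, EIF5 or EIF6. The rule gave 53 genes of 19229 autosomal protein-coding genes, and 3 further genes of the family on the sex chromosomes (EIF1AX, EIF1AY and EIF2S3) fell outside it. PHF8, a histone demethylase with a domain that reads trimethylated lysine 4 of histone H3, was mapped by ChIP-seq in the melanoma cell line SKMEL-147, which is of human origin and established in culture. Of the 5 samples, 3 were ChIP replicates with an anti-PHF8 antibody (A, B1 and B2) and 2 were input chromatin (A and B), which entered only as the background of each peak. The labels of these samples name no guide RNA, drug or time point, all come from the same line, and no ChIP from cells depleted of PHF8 was analysed here. Nothing in the labels tells whether B1 and B2 came from separate cultures, so the spread over replicates may be technical.

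Initiation starts when eIF2 carries the initiator tRNA to the small subunit together with eIF1, eIF3 and eIF5, while eIF4E, eIF4G and eIF4A bind the cap and unwind the mRNA. The exchange factor eIF2B reloads eIF2 with GTP, and 4 kinases that phosphorylate the alpha subunit of eIF2 block this step under stress. The 4E-binding proteins hold eIF4E away from eIF4G, and eIF5B joins the large subunit once the start codon has been found.

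A gene was called bound when a peak lay within 1 kb, upstream or downstream, of any of its transcription start sites (TSSs) in all 3 replicates. The deposited lists of A, B1 and B2 held 21506, 20882 and 20120 peaks, with a median of 54, 39 and 40 ChIP fragments at the summit. Peak strength is given as fold enrichment, the linear ratio of ChIP over background at the summit, for the strongest promoter peak of each gene. Because its scale differed between lists, a percentile is also given, which is the rank of the gene among all 11730 bound genes of the same replicate, and the mean percentile is its mean over the 3 replicates.

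A short sequence that the rule did not use recurred in the bound promoters. The E-box CACGTG, the letters read by MYC with MAX and by MITF among other factors, lay between 250 bases before and 50 after the canonical TSS of 13 of the 47 bound members. That was 27.7%, against 10.6% of all bound genes and 8.65% of all autosomal protein-coding genes. The unbound EIF4EBP3 held an E-box too. To show where it sits, each site is printed with 12 bases on either side, 5′ to 3′ on the strand of the gene, the E-box in capitals (EIF4EBP1, the remaining one of the 13, is not printed).
EIF3A, chr10:120840325-120840354, minus strand: ccgcggggaggtCACGTGgctccttccttt
EIF4B, chr12:53400206-53400235, plus strand: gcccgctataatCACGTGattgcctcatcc
EIF1B, chr3:40351132-40351161, plus strand: gcgcgggacggtCACGTGggaggggccgcg
EIF3F, chr11:8008804-8008833, plus strand: aaagctctagctCACGTGgtgtatattcag
EIF3K, chr19:39109713-39109742, plus strand: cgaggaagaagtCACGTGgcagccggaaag
EIF4A3, chr17:78121031-78121060, minus strand: ccagttccctttCACGTGacgaagagtgcc
EIF2B3, chr1:45452429-45452458, minus strand: gacagagggacaCACGTGtcgaatgctcct
EIF2AK2, chr2:37384287-37384316, minus strand: gtgcaggggcagCACGTGggtgccaagccc
EIF4H, chr7:73588475-73588504, plus strand: acgccgccgcacCACGTGggctgcagagcg
EIF4E, proximal site, chr4:99850339-99850368, minus strand: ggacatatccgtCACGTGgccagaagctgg
EIF4E, distal site, chr4:99850492-99850521, minus strand: ctacccatcggcCACGTGaccagtcctttt
EIF4G1, proximal site, chr3:184032315-184032344, plus strand: ccctgcgccggtCACGTGggggcgccggct
EIF4G1, distal site, chr3:184032238-184032267, plus strand: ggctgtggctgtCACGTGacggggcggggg
EIF5A2, proximal site, chr3:170626571-170626600, minus strand: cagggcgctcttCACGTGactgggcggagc
EIF5A2, distal site, chr3:170626596-170626625, minus strand: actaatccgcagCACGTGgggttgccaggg
All coordinates are GRCh37. The first base of the E-box lay 13 bases before the TSS in EIF3A, 22 before it in EIF4B and 54 before it in EIF1B. EIF4E, EIF4G1 and EIF5A2 each held a pair of sites, in EIF4E at 72 and 225 bases before the TSS.

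Promoters with other motifs or none are shown for comparison, from 120 bases before the TSS to 30 bases into the transcript, with any ETS motif (CCGGAAG on either strand) in capitals. EIF2AK4 was among the highest of the family by mean percentile and held none of the motifs for E-box, ETS, NRF1 or YY1 in this window, EIF2B2 stands for the promoters with an ETS motif at the start site, and EIF3CL stands for an unbound gene copy.
EIF2AK4, chr15:40226196-40226345, plus strand: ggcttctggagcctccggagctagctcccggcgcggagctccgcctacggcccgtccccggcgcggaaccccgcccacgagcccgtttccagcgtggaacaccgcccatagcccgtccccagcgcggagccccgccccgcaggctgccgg
EIF2B2, chr14:75469504-75469653, plus strand: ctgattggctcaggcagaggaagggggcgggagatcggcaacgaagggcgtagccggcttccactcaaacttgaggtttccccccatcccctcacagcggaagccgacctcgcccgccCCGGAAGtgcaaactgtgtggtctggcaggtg
EIF3CL, chr16:28415133-28415282, minus strand: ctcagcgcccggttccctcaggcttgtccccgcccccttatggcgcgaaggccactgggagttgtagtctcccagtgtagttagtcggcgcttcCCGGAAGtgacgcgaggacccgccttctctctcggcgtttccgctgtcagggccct
The same window of EIF3C was identical to that of EIF3CL over 150 of 150 bases.

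PHF8 occupied the promoters of 47 of the 53 initiation factor genes, or 88.7% (95% Wilson interval 77.4 to 94.7), against 61.0% of all autosomal protein-coding genes. The same 47 genes had a peak in each replicate, and the remaining 6 had none in any. All 53 genes had CpG-island-like sequence at the promoter (within 250 bp of the TSS, a GC share of 0.5 or more with CpG pairs at 0.6 or more of the number that base composition predicts). Among all genes with such a promoter 81.8% were bound, a share that lies inside the interval of the family. The TSS scored was the one nearest to the summit in bound genes and the canonical one in unbound genes. The CpG call thus depended in part on the peaks, so this share is not an independent background. The cytosolic ribosomal proteins had 74 bound genes of 75 (98.7%), the aminoacyl-tRNA synthetases 37 of 37 and the proteasome subunits 36 of 38 (94.7%).

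The 47 bound members had medians of 38.4, 23.5 and 21.7 in fold enrichment (A, B1 and B2, the order used throughout), against 33.9, 19.6 and 18.7 for all other bound genes. On the log2 scale the medians differed by 0.22 ± 0.041 (SD, n = 3), a 1.16-fold difference with the members higher in 3 of 3 replicates. An exact permutation test that flips the signs of the 3 replicates (two-sided) gave p = 0.25, the smallest value this design allows. Of the 47 members 34, 32 and 32 ranked above the middle of all bound genes in A, B1 and B2. In the same order 15, 16 and 16 ranked above the 75th percentile and 3, 3 and 2 below the 25th. By construction each of these outer ranges holds 25% of all bound genes.

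Set against other housekeeping families, the initiation factor genes differed less in peak strength than against all other bound genes. Their median lay below that of ribosomal protein genes by a log2 difference of -0.06 ± 0.025 (SD, n = 3, exact sign-flip p = 0.25, Benjamini-Hochberg adjusted p = 0.375 over the 3 families). Against proteasome genes it was -0.15 ± 0.023 (exact p = 0.25, adjusted p = 0.375). Against aminoacyl-tRNA synthetase genes it was -0.04 ± 0.13 (exact p = 0.5, adjusted p = 0.5), and the sign differed between replicates, being 0.11 in A but -0.12 and -0.11 in the B pair. With the recovered ChIP fragments in place of fold enrichment the differences from ribosomal protein and synthetase genes changed sign, to 0.032 and 0.0056, and that from proteasome genes shrank to -0.037 ± 0.034 (exact p = 0.5).

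**Figure D1:**
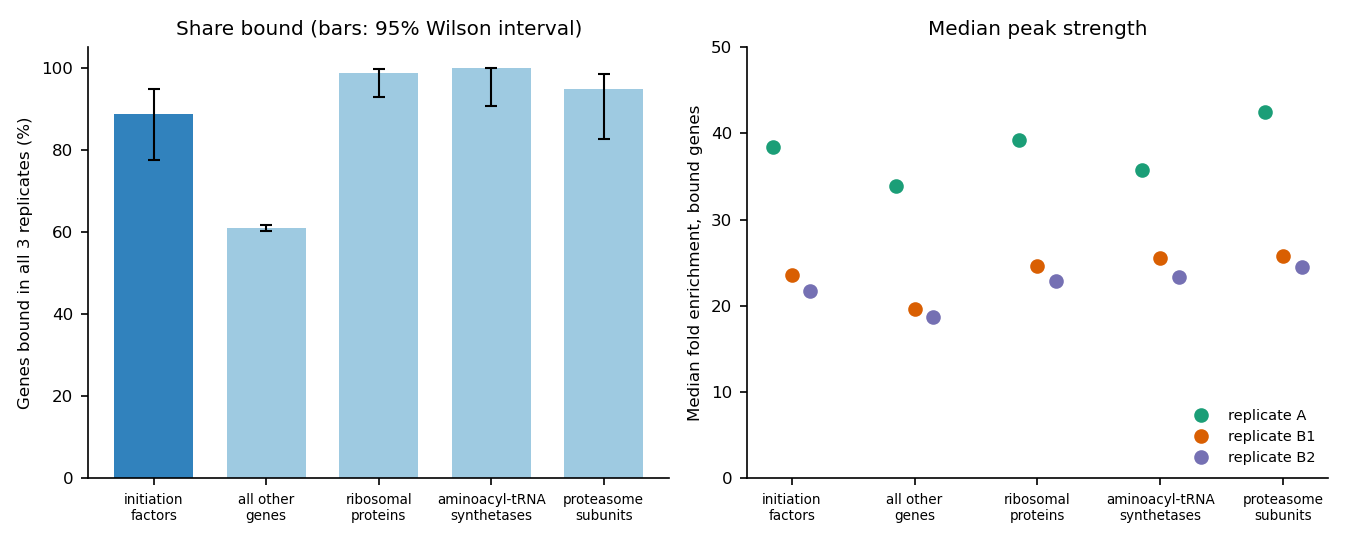
Left, share of genes bound in all 3 replicates (percent) for 53 initiation factor genes, all other autosomal protein-coding genes and 3 housekeeping families, with 95% Wilson intervals. Right, median fold enrichment of the bound genes (linear) in replicates A, B1 and B2. The initiation factor genes lie above all other genes in both panels, with medians of 38.4, 23.5 and 21.7, and differ less from the 3 families in peak strength.

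Among the eIF1 group, EIF1, whose protein guards start codon choice, reached 34.6 in A and 29.4 in both B replicates (fold enrichment, here and for the genes that follow). Its close relative EIF1B had 23.9, 17.2 and 15.8, below EIF1 in every replicate. Their mean percentiles were 74.6 ± 19.9 and 34.2 ± 7.91 (SD, n = 3).

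Genes of eIF2, the carrier of the initiator tRNA, and of tRNA delivery outside it ran by mean percentile from EIF2S1 down to EIF2A. EIF2S1, which encodes the alpha subunit that stress kinases phosphorylate, had 44.2, 35.8 and 34.0 in A, B1 and B2 (mean percentile 88.3 ± 11.3). EIF2A, an alternative tRNA carrier outside the eIF2 complex, had 35.6, 16.1 and 14.2 (40.3 ± 12.8), but by ChIP fragments (154, 97 and 89) its mean percentile was 83.9 ± 6.37. EIF2S2, the beta subunit, and EIF2D lay between them by mean percentile of fold enrichment (54.1 ± 12.7 and 57.6 ± 14.3). In A, however, EIF2D with 30.3 was below EIF2A. By fragments the mean percentiles of EIF2S2 and EIF2D were 78.3 ± 1.98 and 85.5 ± 22.8, so the order of these genes depended on the measure.

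All 5 genes of the exchange factor eIF2B were bound, with a median mean percentile of 77.5. EIF2B3, a subunit of the catalytic part, had 52.3, 34.0 and 28.7. EIF2B5, the catalytic subunit itself, had 43.5, 37.7 and 36.8, which put it at a lower rank in A than in the B replicates (89.2 ± 13.4). EIF2B2, of the regulatory part, was the lowest of the group with 35.2, 20.9 and 20.4 (55.5 ± 2.13).

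The 4 eIF2-alpha kinase genes were all bound, with a median mean percentile of 77.4, close to that of eIF2B. By fold enrichment these were the highest values of the 8 role groups. By ChIP fragments the bound genes of eIF2 and tRNA delivery had mean percentiles from 78.3 to 87.5, so the ranking of groups depended on the measure. EIF2AK4, which encodes the amino acid sensor GCN2, had 57.8, 38.9 and 33.3 (95.3 ± 1.71). EIF2AK1, the haem-regulated kinase, was close to it with 58.5, 37.7 and 32.4 (94.8 ± 2.04). These and EIF3A were the highest of the family by mean percentile, they did not differ beyond their spread, and by ChIP fragments EIF3A came first (96.7, against 95.1 for EIF2AK1 and 94.3 for EIF2AK4). EIF2AK3, the kinase PERK of the endoplasmic reticulum, had 53.4, 18.2 and 17.5, with a mean percentile of 59.9 ± 26.5 by fold enrichment and 78.97 ± 2.01 by ChIP fragments. EIF2AK2, the double-stranded RNA sensor PKR, had 34.7, 21.3 and 18.1 (52.1 ± 4.70), the lowest of the 4 in A and by mean percentile but above EIF2AK3 in B1 and B2.

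Of the 14 genes of eIF3, the large scaffold on the small subunit, 12 were bound, and they spanned nearly the whole range of the family. EIF3A, the core subunit, had 53.6, 46.4 and 33.6 (mean percentile 94.8 ± 4.43). EIF3B, the other core scaffold, had 53.4, 29.1 and 30.6, also high in all 3 replicates. EIF3F had the lowest mean percentile of all bound members with 12.7, 13.2 and 9.51 (14.3 ± 8.56), although EIF5A and EIF3L were weaker in B1 and EIF5A was level with it by ChIP fragments (14.7 ± 3.85 against 14.8 ± 9.10), and its highest value lay below the lowest of EIF3A. EIF3L was second lowest of the group with 34.2, 11.6 and 15.4 (34.8 ± 16.4, or 54.7 ± 2.09 by ChIP fragments). The fold enrichment of the other 8 ran from 28.4 to 46.1 in A.

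Among the cap recognition and scanning factors, in which EIF4A3 of the exon junction complex was counted, 11 of 12 genes were bound. EIF4E, the cap-binding protein, carried one of the weakest peaks of the family, with 16.9, 13.5 and 14.8 (23.6 ± 10.3). Its relatives EIF4E2, a cap-binding repressor, and EIF4E3 were stronger, with 67.4, 21.7 and 21.7 in EIF4E2 and 46.2, 29.5 and 25.6 in EIF4E3. For the helicase pair, EIF4A2 with 53.2, 26.7 and 26.2 lay above EIF4A1 with 28.7, 21.1 and 17.7 in every replicate. The scaffold pair EIF4G1 (35.8, 24.8 and 17.7) and EIF4G3 (35.1, 20.8 and 18.4) had no such order, since EIF4G3 was the higher only in B2.

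Of the proteins that bind eIF4E, EIF4ENIF1, a nuclear import carrier of eIF4E, had 44.02, 24.9 and 23.7 (72.1 ± 2.37). EIF4EBP2 had 41.7, 17.4 and 20.6. EIF4EBP1 had 30.0, 18.1 and 14.1 (38.1 ± 7.13), so the order of these 4E-binding protein genes was not the same in the 3 replicates, with EIF4EBP1 the higher only in B1.

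In the group of joining and late factors, EIF5, the GTPase-activating protein of eIF2, had 40.8, 36.1 and 36.7 (86.6 ± 16.8), and EIF5B had 48.2, 30.2 and 29.9 (86.0 ± 2.95, or 67.4 with a window of 500 bp). EIF5A, a hypusine-bearing factor that also acts in elongation, was second lowest of the whole family with 23.4, 10.6 and 11.5 (19.5 ± 4.595). Its relative EIF5A2 had 38.4, 15.4 and 20.7, above EIF5A in every replicate.

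**Figure D2:**
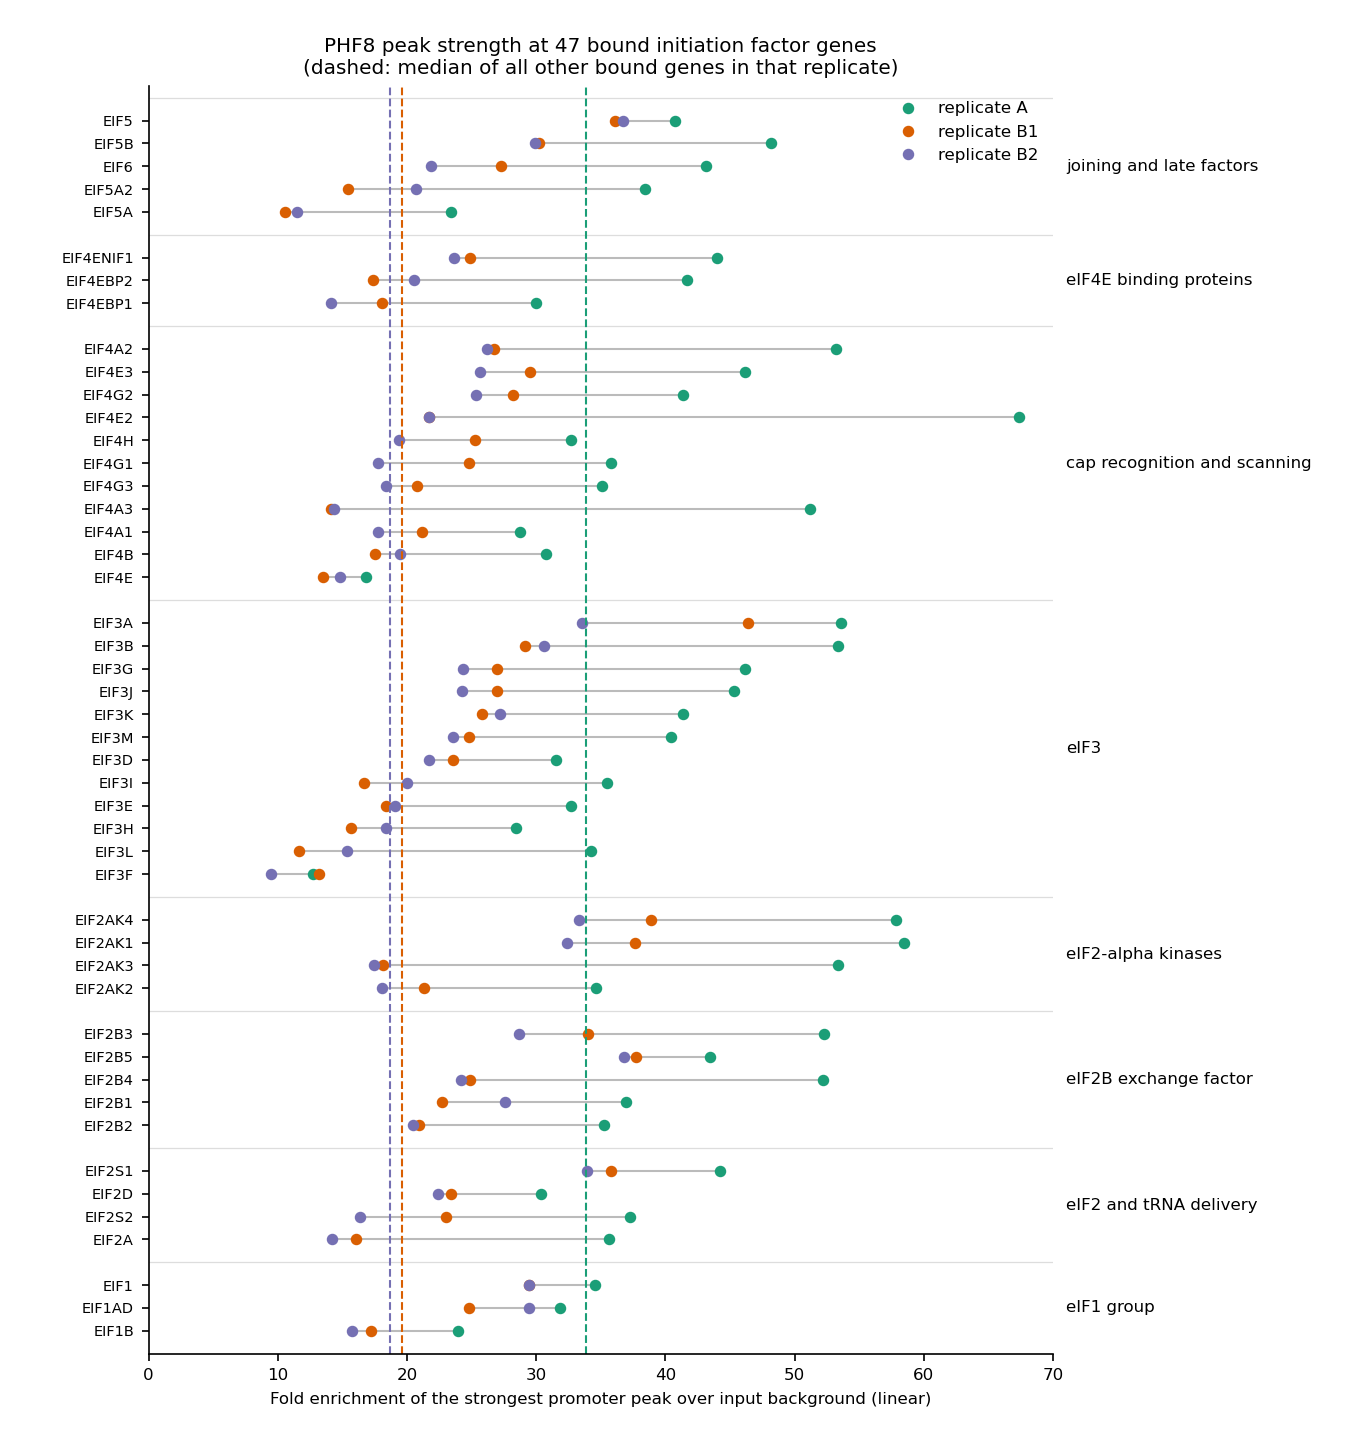
Fold enrichment over input background (linear axis) of the strongest promoter peak of each of the 47 bound genes in replicates A, B1 and B2, grouped by role, with a grey line from the lowest to the highest replicate. Dashed lines mark the medians of all other bound genes (33.9, 19.6 and 18.7). In each replicate EIF2AK4, EIF2AK1 and EIF3A lie to the right of the line of that replicate, and EIF3F, EIF5A and EIF4E to the left of it.

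In all 3 replicates alike, 9 of the 47 members (19.1%) ranked in the upper 25% of bound genes, against 15.3% of all bound genes. They were EIF2AK1, EIF2AK4, EIF2B3, EIF2S1, EIF3A, EIF3B, EIF4A2, EIF4E3 and EIF5B. The place of EIF5B rested on a peak on the side of its neighbour TXNDC9, and its mean percentile was 67.4 with a window of 500 bp and 67.5 with the summit inside the window. The lower 25% in all 3 replicates held 2 members (4.26%), EIF3F and EIF5A, against 17.5% of all bound genes. The strongest promoter peak of every bound member was well above the cutoff of the lists. The fewest ChIP fragments among these peaks were 35, 30 and 33 and the lowest −log10 q-values 30.0, 22.9 and 22.6. Further regions of some members were weaker, such as one upstream of EIF4A1 with a fold enrichment of 13.6, 6.82 and 4.27.

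The 6 unbound members were of several kinds, and the nearest peak lay outside the window in all 3 replicates. EIF4E1B, the oocyte form of the cap-binding protein, came closest, with the nearest peak 2313, 2319 and 2337 bp from a TSS. EIF4EBP3, a 4E-binding protein, had its nearest peak 9297, 9395 and 9486 bp away. For EIF5AL1, EIF2S3B, EIF3C and EIF3CL the nearest peak was between 24089 and 107395 bp away. The last 4 are genes with close copies elsewhere, of which EIF5AL1 and EIF2S3B are named after EIF5A and EIF2S3.

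How far reads could be placed in these promoters was described by the share of 32-base words in the 2 kb around the canonical TSS that occur at 1 place in GRCh37. This share was 2.34% in EIF3C and in EIF3CL, whose windows were identical over 1999 of 2001 bases, and 21.8% in EIF5AL1. It was 79.5% in EIF2S3B, 93.5% in EIF4EBP3 and 100% in EIF4E1B. Bound members had a median of 98.2% and a lowest value of 81.1%. The part of read placement in the missing peaks of EIF3C, EIF3CL and EIF5AL1 was not tested, and the absence of a peak there does not show the absence of PHF8.

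Fold enrichment was highest in A for 46 of the 47 bound members, the exception being EIF3F, and the median ratio of A to the geometric mean of B1 and B2 was 1.68 over members and 1.74 over all bound genes. A few members departed from it. EIF4A3, the helicase of the exon junction complex, fell from 51.2 in A to 14.1 and 14.4 in B1 and B2, a ratio of 3.6, which was at the 99.6th percentile of all bound genes. EIF4E2 had a ratio of 3.11 and EIF2AK3 of 2.997. By ChIP fragments, for which the strongest peak was chosen anew, the same genes had ratios of 1.51, 1.496 and 1.51. All bound genes had 1.49. In EIF2AK3 the peak chosen by fragments was not the same in B1 and B2. It held 136, 92 and 88 fragments, against 136, 79 and 63 at the peaks strongest by fold enrichment. The mean percentile of EIF4A3 was 48.8 ± 33.8 by fold enrichment, 29.4 without replicate A and 82.0 ± 2.98 by fragments.

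The background at these summits was computed from fold enrichment and fragments. Its values therefore follow from those 2 measures and are not a separate measurement. In EIF4A3 the background was 1.77, 5.96 and 5.33 fragments, and in EIF4E2 it was 1.57, 4.25 and 4.44. Over all members the median background was 1.80, 2.21 and 2.40. The backgrounds above the most common value fell on whole multiples of a fixed step in many peaks, with steps of 0.67, 0.851 and 0.888 fragments, and those of EIF4A3 were 7 steps in B1 and 6 steps in B2. EIF2D, with a background of 6 steps in both B replicates, went the other way in fragments, with 110, 142 and 141. Spearman's rho of fold enrichment over the 47 members was 0.63 between A and B1, 0.60 between A and B2 and 0.88 between B1 and B2, and for fragments it was 0.85, 0.86 and 0.91. These are correlations across genes of the same libraries, and genes are not independent replicates.

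**Figure D3:**
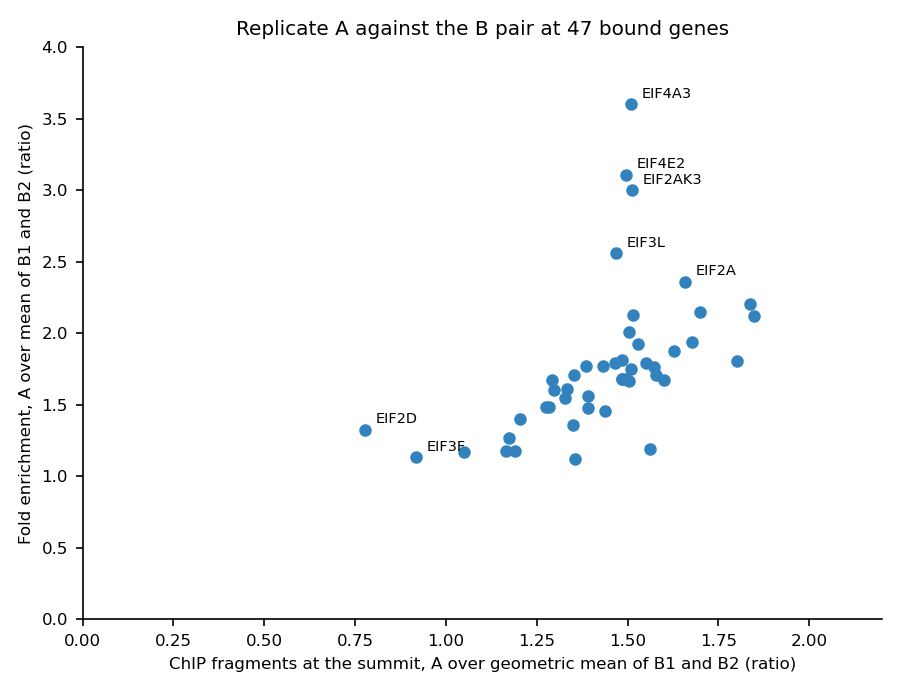
Ratio of replicate A to the geometric mean of B1 and B2 at the 47 bound genes, for fold enrichment (vertical axis) against ChIP fragments at the summit (horizontal axis), both linear. The strongest peak was chosen separately for each measure, so in EIF2AK3 the axes use different peaks in B1 and B2. EIF4A3, EIF4E2 and EIF2AK3 lie at 3.6, 3.11 and 2.997 in fold enrichment and near 1.5 in fragments.

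Beyond the strongest peak, 19 of the 47 members (40.4%) had at least 2 separate promoter regions in all 3 replicates, against 29.2% of all bound genes. EIF1 had one region upstream of its start site with 28.1, 14.1 and 11.96 and one over it with 34.6, 29.4 and 29.4. EIF1B (upstream 19.6, 9.47 and 11.4), EIF4B (upstream 16.9, 11.1 and 12.9) and EIF2B2 (upstream 27.6, 13.4 and 11.4) had the same layout, with the downstream region the stronger in each replicate. In EIF4E the regions on either side of the start site were nearly even, with 16.9, 13.5 and 11.1 downstream and 16.6, 12.3 and 14.8 upstream.

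Some pairs of regions lay far apart because the gene has distant start sites. EIF2AK3 had regions at chr2:88926335-88927055, chr2:88927336-88927980 and chr2:88990546-88991835, the last of them shared with the promoter of RPIA. EIF4ENIF1 had one region of its main start site (42.1, 24.9 and 21.8) and one at a start site further upstream (44.02, 22.8 and 23.7). EIF3E and EIF3H also had a second start site with a region shared with a neighbour, EMC2 and UTP23 respectively. In EIF5A the strongest region was the one at the upstream start site in A (23.4) and B2 (11.5) and the one at the downstream start site in B1 (10.6).

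Shared promoters were common. Of the 47 bound members 32 (68.1%) had a gene of any type starting on the opposite strand within 2 kb, against 54.9% of all bound genes, and for 16 of them it was a protein-coding gene. In 18 members a bound region also lay in the window of another coding gene, such as ATP6V1D for EIF2S1, SNX8 for EIF3B, SNX17 for EIF2B4, TXNDC9 for EIF5B and GTF2H3 for EIF2B1. In EIF5B the strongest peak of A and B1 was centred 1162 and 1172 bp upstream of its start site, on the side of TXNDC9, while the region over the EIF5B start site had 27.1, 28.0 and 29.9. For such promoters binding at the 2 genes cannot be told apart.

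For the 15 bound members with no opposite gene within 2 kb, the summit lay downstream of the nearest TSS in 12 of 15 in each replicate (80%, Wilson interval 54.8 to 93.0). The median signed distance over all 15 summits, with upstream ones negative, was 72, 73 and 89 bp downstream. Other bound genes without an opposite gene had a downstream summit in 73.5%, 73.1% and 73.7%, with median signed distances of 88, 85 and 87 bp. EIF2AK4 (115, 120 and 122 bp), EIF2B3 (108, 118 and 115 bp) and EIF3F (60, 68 and 54 bp) held their position within 14 bp. The summit was downstream in all 3 replicates in 10 genes, while EIF2S2, EIF3D, EIF3G, EIF4EBP1 and EIF4H changed sides, EIF2S2 with summits 337 and 311 bp upstream and 178 bp downstream. By the annotation, the summits of the 47 members in A lay in a UTR in 10 genes, a coding exon in 11, a non-coding exon in 3, an intron in 12 and outside the gene in 11. Peak widths had a median of 871, 707 and 737 bp and a difference from other bound genes of 20.3 ± 42.4 bp (SD, n = 3, exact sign-flip p = 0.5). The difference was 45 ± 5.29 bp with a window of 500 bp and 50.7 ± 4.51 bp with the summit inside the window (exact p = 0.25 in both, the smallest possible), and 47.3 ± 9.55 bp without replicate B1.

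**Figure D4:**
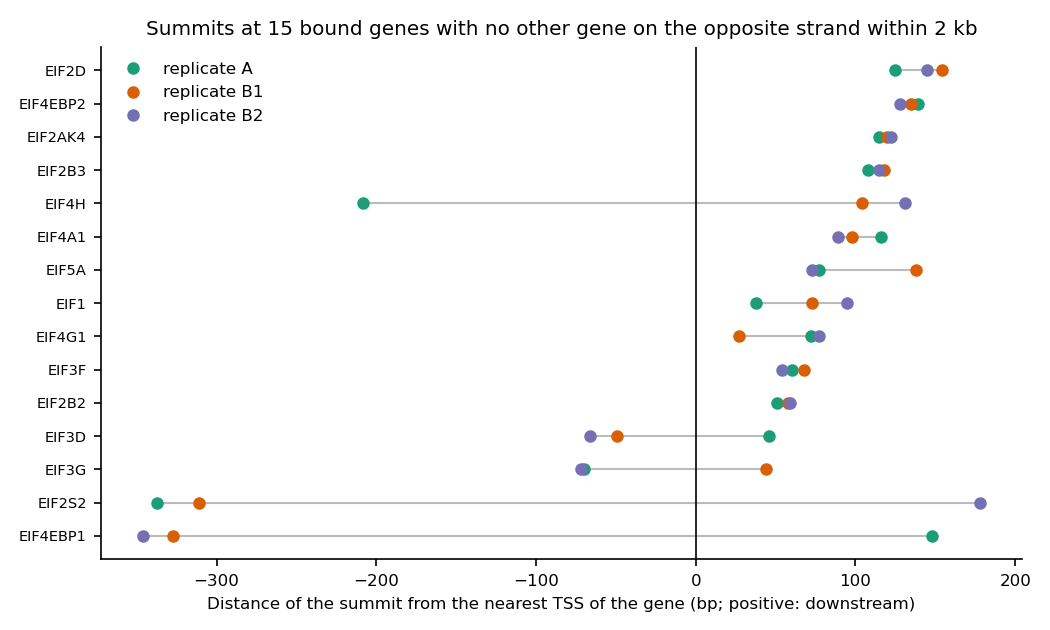
Distance of the summit of the strongest peak from the nearest TSS of the gene (bp, positive values downstream) in replicates A, B1 and B2 for the 15 bound genes with no other gene on the opposite strand within 2 kb. In each replicate 12 of the 15 summits were downstream, in 10 genes they were so in all 3, and the summits of EIF2S2 and EIF4EBP1 were the most widely spread.

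The motif shares were computed as exact letters on both strands over the 250 bases before and 50 after the canonical TSS. The E-box was held by 13 of 47 bound members (27.7%), against 8.65% of all genes and 10.6% of all bound genes. In the other families it was held by 8% of ribosomal protein genes, 10.8% of synthetase genes and 5.26% of proteasome genes. The group of cap recognition and scanning factors, in which EIF4A3 was counted, held it in 5 of 11 genes (EIF4A3, EIF4B, EIF4E, EIF4G1 and EIF4H). The members with an E-box had a median mean percentile of 51.2 and those without one 70.5 (no test was made). A lower median was not particular to the E-box, as the values for other motifs below show. EIF3A and EIF2B3, among the 6 highest members, held one.

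The ETS motif CCGGAAG was held by 16 bound members (34.0%), against 14.1% of all genes and 21.05% of bound genes, and by 34.7% of ribosomal protein genes, 37.8% of synthetase genes and 36.8% of proteasome genes. The unbound EIF2S3B, EIF3C and EIF3CL held the ETS motif too, which made 19 of all 53 members (35.8%). EIF5A2 was the 1 bound member with both an E-box and an ETS motif, and 19 bound members held neither. The NRF1 motif GCATGCGC and the YY1 motif AAGATGGCG were each held by 4 members (8.51%), against 4.19% and 2.84% of all genes and 6.25% and 4.51% of bound genes. In the ribosomal protein, synthetase and proteasome families NRF1 was held by 8%, 8.11% and 5.26% and YY1 by 12%, 13.5% and 10.5%. GC boxes (GGGCGG) were held by 76.6%, CCAAT boxes by 44.7% and TATA boxes (TATAAA) by 4.26%, against 75.9%, 36.7% and 4.61% of bound genes. Of all genes 61.3%, 35.7% and 9.83% held them. Median mean percentiles with and without the motif were 58.1 and 72.1 for ETS, 57.6 and 72.0 for the GC box. They were 55.5 and 72.1 for the CCAAT box and 43.8 and 67.7 for YY1. The order was the other way for NRF1 (88.8 and 57.7) and the TATA box (68.2 and 59.9). No test was made. These motif matches are descriptions of the letters and do not show a bound factor.

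**Figure D5:**
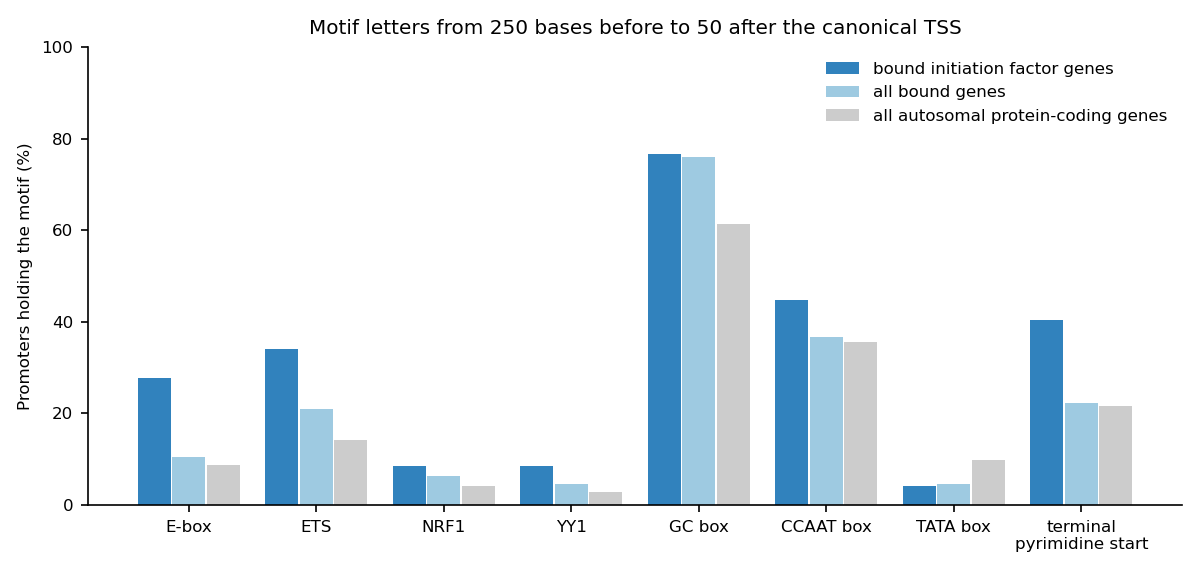
Share of promoters (percent) holding each motif in the 250 bases before and 50 after the canonical TSS, for the 47 bound initiation factor genes, all 11730 bound genes and all 19229 autosomal protein-coding genes. The E-box (27.7%), the ETS motif (34.0%) and a terminal pyrimidine start (40.4%) stand above the other sets. The GC box (76.6%) stands above all genes (61.3%) but is close to bound genes (75.9%).

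Other genes of translation and its control, in lists picked by hand, were also mostly bound. Over all autosomal protein-coding genes the share bound was 61.0%, and over those with a CpG-island-like promoter it was 81.8%. A list of 31 further genes of initiation and its control, such as cap-binding, mTOR and stress response regulators, was bound in 31 of 31 cases. Their median percentile was 67.4 ± 6.24 (mean and SD over replicates, n = 3). TSC2, a brake on mTOR signalling, had 59.6, 35.1 and 36.8, and PAIP2B, an inhibitor of the poly(A)-binding protein, had 17.9, 4.77 and 6.28. Of 12 elongation and release genes 11 were bound, all but EEF1A2, at 46.96 ± 7.89 by the same measure, with PELO, a ribosome rescue factor, the lowest at 14.1, 7.54 and 9.20. Of 6 markers of the melanocyte lineage, PMEL (47.1, 27.8 and 27.7), MITF (37.6, 20.4 and 24.6) and SOX10 (7.27, 8.18 and 6.90) were bound, and TYR, DCT and MLANA were not. Peak lists hold no expression values, so these markers do not check the identity of the cells.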

How the data were processed

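Peak lists of 3 PHF8 ChIP replicates were used. Reads were aligned by the authors to hg19 with Bowtie2, and the authors called narrow peaks with MACS for each replicate against input. The submitters' processing notes also name bcl2fastq and Picard. The deposited values were fold enrichment (a linear ratio), −log10 p-values and −log10 q-values, and a score made from the q-value by the authors, which was not used. Every peak passed the cutoffs applied (fold enrichment above 1.5, q-value below 0.05). Coordinates were compared with GRCh37, where no peak ended beyond its chromosome.

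TSSs were taken from all transcript starts in GENCODE release 44 lifted to GRCh37. CpG content was taken at the TSS nearest to the summit in A, or the canonical TSS of unbound genes. ChIP fragments at a summit were recovered from fold enrichment and p-value under a Poisson law and came out whole in 100% of peaks (tolerance 0.001). Ranks and ratios by fragments used the promoter peak with the most fragments in each replicate. The fragments carry no molecular identifiers and cover counting error only, and the authors' read totals are not given in the sources used here. Wilson intervals (95%) are binomial intervals over genes. They treat genes as independent and do not cover the spread over replicates. Medians were compared by exact two-sided sign-flip tests over the 3 replicates. Steps were tested on simulated data (Python 3.11.15, NumPy 2.4.6, SciPy 1.17.1).

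The genes and lists were chosen with earlier results of these data known. Values were given by replicate for the 6 highest and 6 lowest bound members by mean percentile, the highest and lowest of each role, members with several regions and paralog pairs. Members whose replicates differed most were added after their values were seen. Alternatives were stricter cutoffs, narrower and wider windows, other TSS sets, fragments for fold enrichment, and each replicate left out.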

Additional observations from a re-analysis of the deposited data

How the results depend on the processing

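The bound share stayed at 88.7% under both stricter cutoffs, both other windows, summits inside the window, a peak in at least 2 replicates and without any 1 replicate. With only the 5′ end of each gene record as the TSS it was 84.9%, with EIF3F and EIF4E3 lost. The share of all autosomal protein-coding genes in that setting was 54.8%, in place of 61.0%. The pathway list was then bound in 86.0% in place of 97.7%, and downstream summits made up 88.1%. With EIF3CL, EIF5AL1 and EIF2S3B left out the bound share was 94%. All of these were unbound, so the share could only rise, and the unbound EIF3C was kept. Downstream summits made up 84.4% with protein-coding transcripts only and 61.1% with divergent promoters kept. Recovered fragments turned the log2 difference from ribosomal protein genes to 0.0319 and that from synthetase genes to 0.00557, that from proteasome genes shrank from -0.15 to -0.037, and the difference from all other bound genes was 0.34 in place of 0.22. The width difference ran from 7 to 50.7 bp over all alternatives. With fragments the mean percentile of 22 of the 47 members moved by more than its SD over replicates, and under the other alternatives those of EIF3E, EIF3H, EIF4ENIF1 and EIF5B did. The cause of these shifts was not tested. No paired analysis was possible because the ChIP and input samples share only the label A and the inputs have no peak list here. With 3 replicates no sign-flip test could reach the threshold.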

Other observations

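A start with a terminal pyrimidine tract (a C within 5 bases of the canonical TSS followed by at least 4 pyrimidines), the feature known from mRNAs whose translation follows mTOR, was held by 19 of the 47 bound initiation factor genes (40.4%), against 21.7% of all genes, 22.3% of bound genes, 86.7% of ribosomal protein genes, 32.4% of synthetase genes and 23.7% of proteasome genes. By role it was held by 10 of 12 bound eIF3 genes (EIF3A, EIF3D, EIF3E, EIF3F, EIF3G, EIF3H, EIF3J, EIF3K, EIF3L and EIF3M), and by 0 of 5 eIF2B genes. EIF3B and EIF3I were the eIF3 genes without it. The tract depends on the annotated TSS, which was not measured in these cells.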
